A study of Homo sapiens with 4 samples.

Results

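The integrins and laminins are the receptor and ligand families through which carcinoma cells hold on to basement membrane. Genes were taken by symbol from a list of 25 integrin subunits and 10 laminin chains, and 33 of the 35 had a probe set naming that gene alone, out of 18417 genes on the array. ITGA1 shares its probe set with another gene and LAMA3 is not named by a single-gene probe set in the annotation used, so neither was analysed here. Each of the 33 had 1 probe set. The membership was set by gene family and not by the values.

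The material was SNU-16, an established line of human gastric carcinoma cells. It was grown orthotopically, in the stomach wall of BALB/c nude mice, which lack a thymus and therefore mature T cells but keep other host leukocytes, fibroblasts and vessels. The 4 arrays are the round 2 and round 1 cells recovered from ovarian metastases and the round 2 and round 1 cells recovered from stomach tumours, so each site and each round has 2 arrays. The round 2 ovary line descends from the round 1 ovary line and the round 2 stomach line from the round 1 stomach line, after 7 days of culture between implantations. No culture time is recorded here for the round 2 samples, so culture time cannot be told apart from round. All lines share the same parental cells and host strain, no parental or uninjected culture was analysed here, and the sources used here do not say how many animals lie behind each line. The free-text description of the round 2 stomach sample names ovary as the site cultured, and the text for the round 2 ovary sample closes by placing the tumour in the stomach. Titles and tissue labels were followed. Exchanging the round 2 samples leaves the mean difference between rounds and the overlap of rounds as they are, but alters counts made at both sites, differences between sites and the interaction. The 2 arrays of a site are successive lines of 1 lineage and those of a round come from 2 lineages, so p-values measure only the spread between these samples, which may be technical.

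Integrins are heterodimers of an alpha and a beta subunit that span the plasma membrane, bind matrix outside the cell and couple to actin or keratin filaments inside it through talin, kindlin and plectin. Laminins are trimers of an alpha, a beta and a gamma chain that polymerise into the sheet of the basement membrane. In gastric and other simple epithelia, alpha 3 beta 1, alpha 6 beta 1 and alpha 6 beta 4 are the usual laminin receptors, alpha 2 beta 1 binds collagen, and the alpha v integrins bind the arginine-glycine-aspartate (RGD) motif in fibronectin, vitronectin and latent TGF-beta.

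Values are log2 expression, with array medians over all rows between 6.80 and 6.84. The signal minimum for testing was a mean of 5.64 over the 4 arrays, set at the 30th percentile of the rows' means, which 14547 of 18417 genes passed (79.0%). Of the members, 26 passed, 18 of 24 integrins and 8 of 9 laminins. The members nearest above this minimum were ITGA9 (mean 5.72) and LAMA1 (5.76), and those nearest below were ITGA10 (5.62) and ITGAL (5.45). Probe sets differ in how brightly they hybridise, so levels are compared between arrays and never between genes. The 8 markers of carcinoma epithelium all lay above the minimum, with means from 9.88 (CLDN4) to 12.5 (KRT8). Of 13 leukocyte markers with a probe set, 7 lay below the minimum, PTPRC among them at 4.04. Likewise 5 of 10 fibroblast and 4 of 8 endothelial markers lay below it, including DCN at 3.87 and PECAM1 at 4.88. The highest means in these lists were 7.44 for leukocyte, 7.59 for fibroblast and 7.15 for endothelial markers. All 7 smooth and skeletal muscle markers lay above the minimum, with means from 5.90 to 7.65.

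The comparison of rounds asked how cells recovered after a second passage through the mouse differed from those recovered after the first. Higher in round 2 at both sites were 3 of 4 laminin-binding, 1 of 2 collagen-binding and 3 of 5 RGD receptor subunits above the minimum. In the same groups 1, 1 and 0 were lower at both sites. Over all genes tested, 29% were higher and 34.7% lower at both sites. ITGB1, shared by many heterodimers, was higher too. The laminin chains had no shared direction, and no difference passed the test. Of 18 integrins above the minimum, 9 had both round 2 arrays above both round 1 arrays, against 22.2% of all genes tested, and 5 had both below, against 26.8%. The means of these 5 lay near the minimum, from 5.72 (ITGA9) to 6.36 (ITGA7), and under the 50th percentile of row means at 6.82. The means of the 9 higher ones ran from 6.70 (ITGB2) to 10.13 (ITGB4). Of 8 laminins above the minimum, 0 were higher and 2 were lower without overlap. With the round 2 samples exchanged, the members higher in round 2 at both sites were 10 integrins and 2 laminins, against 9 and 0 as labelled. After centring each array on its median, 2 laminins (LAMA5 and LAMC1) were higher without overlap, and the same 9 integrins were higher as without centring. The median difference of round 2 minus round 1 was 0.19 over these 18 integrins, 0.031 over these 8 laminins and -0.019 over all genes tested, and no test of integrins against laminins was made. None of these differences passed limma's test across all genes: 0 of 14547 genes passed (0%), and the members' adjusted p-values began at 0.287. At an unadjusted p under 0.05 there were 7 members, where 15% of all genes tested were: 6 integrins were higher, where 7.64% of all genes were, and 1 laminin lower, where 7.33% were. The count of 7 was 1 without the round 1 ovary array, 3 without the round 2 stomach array and 4 after quantile normalization.

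Markers of other cell types and of the carcinoma cells also differed between rounds. Of 8 carcinoma epithelium markers, 5 were higher in round 2 at both sites, where 29% of all genes tested were, and 0 were lower, where 34.7% were, with a median difference of 0.14. The median was 0.31 in ovary lines and 0.046 in stomach lines. Their summed linear signal was lowest on the round 1 ovary array, at 22624. It was 26624 in round 1 stomach, 27091 in round 2 ovary and 27765 in round 2 stomach. Of those above the minimum, 5 of 6 leukocyte, 5 of 5 fibroblast, 3 of 4 endothelial and 2 of 3 platelet markers were lower in round 2 at both sites. The platelet markers include ITGA2B, itself a member, which was not lower at both sites. Of 7 smooth and skeletal muscle markers, 3 were higher and 1 lower at both sites, with a median difference of 0.023. The arrays are human and the host is a mouse, so these marker values do not measure host cells directly. The part of these cell types in the values of the integrins was not tested. In bulk samples fewer cells of a type and less RNA per cell cannot be told apart.

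**Figure D1:**
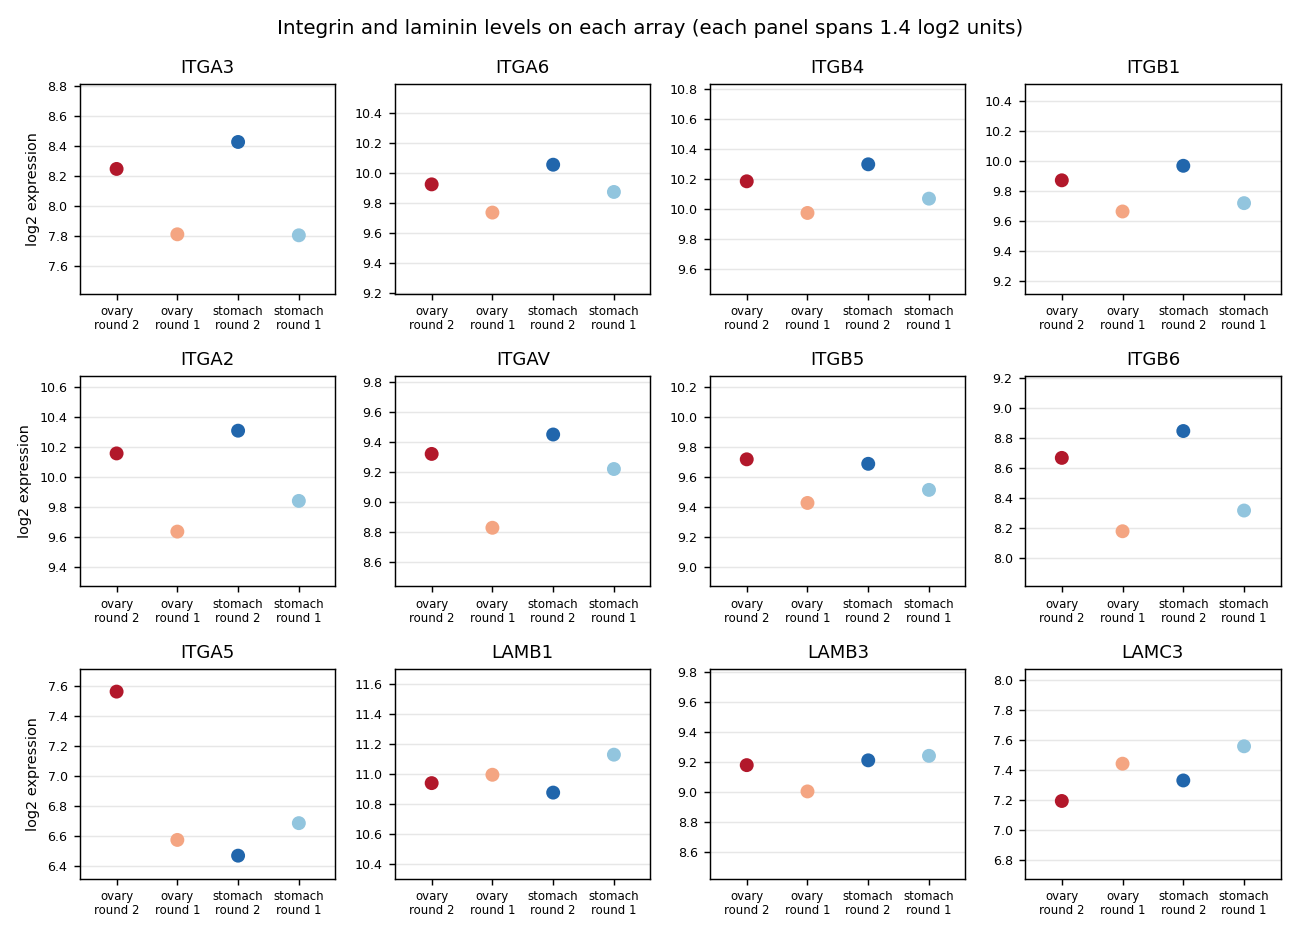
Log2 expression of 12 members on each of the 4 arrays, with ovary in red and stomach in blue, round 2 in the darker and round 1 in the lighter shade; 1 point is 1 array, every panel spans the same number of log2 units, and the axes do not start at 0. In the first 8 panels both round 2 points lie above both round 1 points, ITGA5 is highest on the round 2 ovary array at 7.57, and LAMC3 is lower in round 2 at each site.

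Among the laminin receptors, ITGA3, the alpha 3 subunit, had 8.25 in ovary and 8.43 in stomach in round 2, against 7.81 in ovary and 7.81 in stomach in round 1. The round 1 arrays lay 0.0066 apart, and both round 2 arrays stood clear of them. The difference was 0.53 ± 0.090 (limma standard error, 2 arrays per round), a 1.44-fold difference with a limma adjusted p of 0.287. ITGA6, the alpha 6 subunit that pairs with beta 1 or beta 4, had 9.93 in ovary and 10.06 in stomach in round 2, against 9.74 in ovary and 9.88 in stomach in round 1. ITGB4, the beta 4 subunit whose long cytoplasmic tail binds plectin in hemidesmosomes, had 10.19 in ovary and 10.30 in stomach in round 2, against 9.97 and 10.07 in round 1. The alpha 6 and beta 4 subunits, which form a single receptor, differed by 0.18 ± 0.092 for ITGA6 and 0.22 ± 0.084 for ITGB4. In both, the groups did not overlap, and stomach was above ovary in each round. Differences of similar size were found outside this receptor, at 0.23 for both ITGB1 and ITGB5. ITGA7, the alpha 7 subunit known mainly from muscle, was lower at both sites, with 6.30 in ovary and 6.29 in stomach in round 2, against 6.43 and 6.41 in round 1.

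ITGB1, the beta 1 subunit shared by a large part of the family, had 9.87 in ovary and 9.97 in stomach in round 2, against 9.67 in ovary and 9.72 in stomach in round 1. Both lines of round 2 were above both lines of round 1, by 0.23 ± 0.077 (1.17-fold, limma adjusted p = 0.311). Its collagen-binding partner ITGA2, the alpha 2 subunit, had 10.16 in ovary and 10.31 in stomach in round 2, against 9.63 in ovary and 9.84 in stomach in round 1. The groups were separated, and the difference was 0.49 ± 0.11 (1.41-fold, limma adjusted p = 0.287). The other collagen receptor subunit above the minimum, ITGA11, which is known from fibroblasts, had 5.96 in ovary and 6.08 in stomach in round 2, against 6.25 and 6.16 in round 1. Its difference of -0.18 ± 0.084 was -0.12 without the round 2 ovary array. ITGA10, a collagen receptor subunit of cartilage, was below the minimum on average, ranging from 5.46 to 5.71 over the 4 arrays.

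ITGB6, the beta 6 subunit, pairs only with alpha v and is known for activating latent TGF-beta in epithelia. It had 8.66 in ovary and 8.84 in stomach in round 2, against 8.18 in ovary and 8.31 in stomach in round 1. Both round 2 arrays were above both round 1 arrays, by 0.51 ± 0.10 (1.42-fold, limma adjusted p = 0.287). Its partner ITGAV, the alpha v subunit, had 9.32 in ovary and 9.45 in stomach in round 2, against 8.83 in ovary and 9.22 in stomach in round 1. The round 1 ovary array was the low one, and the difference of 0.36 ± 0.15 (limma adjusted p = 0.358) was 0.17 when that array was left out and 0.56 without the round 1 stomach array. ITGB5, the beta 5 subunit and another alpha v partner that binds vitronectin, had 9.72 in ovary and 9.69 in stomach in round 2, against 9.43 and 9.52 in round 1, a difference of 0.23 ± 0.074. ITGB3 and ITGB8, which also pair with alpha v, were below the minimum. ITGB3 ranged from 5.21 to 5.39 and ITGB8 from 5.18 to 5.59, each highest on the round 2 ovary array.

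With rounds at least 25% apart at both sites, 3 members were higher in round 2 (ITGA2, ITGA3 and ITGB6), where 2.4% of all genes tested were, and 0 were lower, where 1.64% were. This threshold was chosen after the values were seen, and with the round 2 samples exchanged 2 members passed it, since ITGA2 then differed by 0.32 in stomach lines, just under the threshold. In the plot of round differences by site these 3 lie far out along the diagonal, and the laminins lie near the origin or below it.

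**Figure D2:**
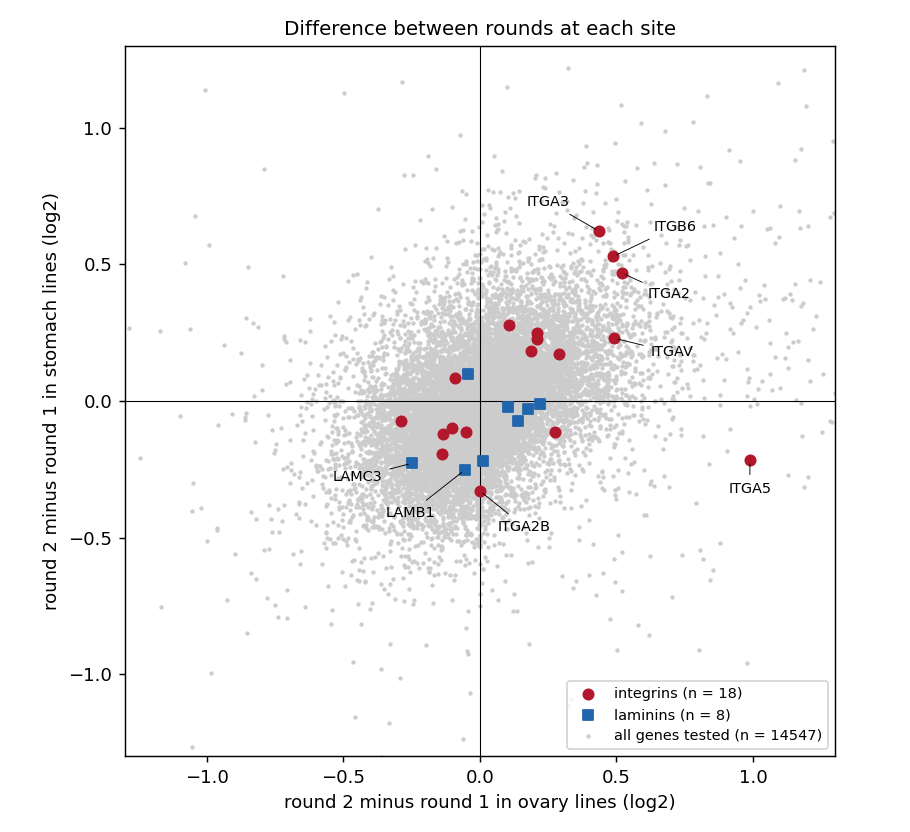
Difference between rounds (round 2 minus round 1, log2) in ovary lines on the x axis and in stomach lines on the y axis, for integrins (red circles), laminins (blue squares) and all 14547 genes tested (grey; 64 genes lie outside the axes). ITGA3, ITGB6, ITGA2 and ITGAV are higher in round 2 at both sites, and ITGA5, with sites as labelled, is at 0.99 in ovary lines and -0.22 in stomach lines.

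The promoters of 4 members that had a promoter entry are shown as examples of the contrasts between the arrays. ITGA2 and ITGB6 were higher in round 2 at both sites, ITGA5 was high on a single array, and LAMB1 was lower in round 2. ITGA3 and LAMC3, the integrin and laminin above the minimum with the largest round differences in size, had no promoter entry. The sequences are RefSeq's, build GRCh38.p14, and run 5′ to 3′ on the gene's strand from 250 bases before to 50 bases after the annotated start. They lie at chr5:52989102-52989401 (plus strand), chr2:160200223-160200522 (minus strand), chr12:54419217-54419516 (minus strand) and chr7:108003112-108003411 (minus strand). Capitals mark matches on either strand, so that an Sp1 box may read GGGCGG or its reverse complement. The other motifs searched were the AP-1 site with the letters TGANTCA, the CCAAT box, the TATA box with the letters TATAAA and the TEAD site with the letters GGAATG.
ITGA2 promoter: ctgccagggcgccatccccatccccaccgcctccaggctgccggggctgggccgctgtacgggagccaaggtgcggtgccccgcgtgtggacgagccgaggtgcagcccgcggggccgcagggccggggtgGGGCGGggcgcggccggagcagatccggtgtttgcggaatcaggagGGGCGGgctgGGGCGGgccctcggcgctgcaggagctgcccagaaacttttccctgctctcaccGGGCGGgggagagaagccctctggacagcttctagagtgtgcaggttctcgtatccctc
ITGB6 promoter: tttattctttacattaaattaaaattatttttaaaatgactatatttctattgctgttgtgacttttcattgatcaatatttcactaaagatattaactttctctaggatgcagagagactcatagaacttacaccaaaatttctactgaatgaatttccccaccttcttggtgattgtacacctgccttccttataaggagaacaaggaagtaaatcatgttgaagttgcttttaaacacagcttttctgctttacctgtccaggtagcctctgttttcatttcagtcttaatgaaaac
ITGA5 promoter: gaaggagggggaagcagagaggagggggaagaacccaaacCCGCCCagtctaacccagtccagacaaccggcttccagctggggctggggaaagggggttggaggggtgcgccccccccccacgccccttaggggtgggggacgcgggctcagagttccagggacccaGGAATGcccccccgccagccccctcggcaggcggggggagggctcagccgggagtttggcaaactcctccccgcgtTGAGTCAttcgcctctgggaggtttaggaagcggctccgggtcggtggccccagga
LAMB1 promoter: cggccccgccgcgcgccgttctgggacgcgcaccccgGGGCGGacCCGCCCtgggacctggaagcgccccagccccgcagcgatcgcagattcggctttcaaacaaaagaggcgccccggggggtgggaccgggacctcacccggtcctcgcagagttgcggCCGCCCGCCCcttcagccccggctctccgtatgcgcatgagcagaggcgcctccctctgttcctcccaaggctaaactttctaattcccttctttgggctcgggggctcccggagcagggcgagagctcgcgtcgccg

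Of the 35 listed genes, 25 matched the promoter table, with 32 entries. The ITGA2 window held 4 Sp1 boxes and was 72.7% G or C. The ITGB6 window, 31.7% G or C, held 0 matches to any of the 5 motifs, so the windows of these genes, both higher in round 2, have none of the motifs in common. The ITGA5 window held 1 Sp1 box, 1 AP-1 site and 1 TEAD site, and the LAMB1 window 4 Sp1 boxes, 2 of which overlap. Over all 35116 promoters of the table, 45% hold the Sp1 letters, 7.71% the AP-1 letters, 34.6% the CCAAT box, 11.5% the TATA box and 14% the TEAD letters.

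Of 6 leukocyte, alpha 4 and alpha 9 subunits above the minimum, 1 was higher and 3 were lower in round 2 without overlap, against 22.2% and 26.8% of all genes tested. The higher one was ITGB2, the beta 2 subunit of leukocyte integrins, with 6.72 in ovary and 6.87 in stomach in round 2, against 6.61 and 6.60 in round 1 (0.19 ± 0.085, limma adjusted p = 0.373). Its alpha partners were near or below the minimum. ITGAM, alpha M, had 5.73 in ovary and 5.84 in stomach in round 2, against 5.82 and 5.75 in round 1. ITGAX, alpha X, had 6.17 in ovary and 6.06 in stomach in round 2, against 6.22 and 6.17 in round 1. ITGAL ranged from 5.31 to 5.66, so none of the 3 was higher in round 2 at both sites as ITGB2 was. The ITGAX rounds did not overlap here but did after quantile normalization or centring. ITGA9, which binds tenascin and osteopontin, had 5.61 in ovary and 5.66 in stomach in round 2, against 5.75 and 5.85 in round 1. ITGB7, the partner of alpha E and alpha 4 in gut-homing lymphocytes, had 6.10 in ovary and 6.12 in stomach in round 2, against 6.20 and 6.22 in round 1. ITGA4 was below the minimum, from 4.95 to 5.03, as was the RGD-binding subunit ITGA8, from 4.96 to 5.22. The platelet subunit ITGA2B had 6.14 in ovary and 5.96 in stomach in round 2, against 6.14 and 6.29 in round 1. The summed linear signal of all 13 leukocyte markers with a probe set was 749.7 in ovary and 807 in stomach in round 2, against 814 in ovary and 882 in stomach in round 1. On human arrays this sum does not measure leukocytes of the mouse host directly. The part of leukocytes in the values of these integrins was not tested.

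The laminin chains showed no shared direction between rounds. LAMB1, the beta 1 chain, had 10.94 in ovary and 10.88 in stomach in round 2, against 10.996 in ovary and 11.13 in stomach in round 1. Both round 2 arrays were below both round 1 arrays, with a difference of -0.15 ± 0.084 (limma adjusted p = 0.433). Leaving out the round 1 stomach array gave -0.087. LAMC1, the gamma 1 chain found in most laminins, had 9.46 in ovary and 9.43 in stomach in round 2, against 9.36 and 9.46 in round 1. These groups overlapped, with a difference of 0.041 ± 0.075. LAMC3, the gamma 3 chain, had 7.196 in ovary and 7.33 in stomach in round 2, against 7.44 in ovary and 7.56 in stomach in round 1. Both round 2 arrays were lower, with a difference of -0.24 ± 0.090 (1.18-fold, limma adjusted p = 0.333), the largest of the 8 laminin differences in size.

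LAMA5, the alpha 5 chain of laminins in mature epithelial basement membrane, had 8.29 in ovary and 8.16 in stomach in round 2, against 8.07 and 8.17 in round 1. LAMB3, the beta 3 chain of laminin-332, the ligand of alpha 3 beta 1 and alpha 6 beta 4, had 9.18 in ovary and 9.21 in stomach in round 2, against 9.004 and 9.24 in round 1. In both genes the round 1 ovary array was the lowest of the 4, and the differences were 0.10 ± 0.087 and 0.073 ± 0.10. LAMB2, the beta 2 chain, had 8.04 in ovary and 7.82 in stomach in round 2, against 7.90 and 7.89 in round 1. LAMA4, a chain of vessels and mesenchyme, ranged from 5.69 to 5.91, and LAMA1, a chain of the early embryo, from 5.72 to 5.82. LAMA2, a chain of muscle basement membrane, was below the minimum, from 5.35 to 5.52. The median round difference of the 5 fibroblast markers above the minimum was -0.087, and their part in the values of LAMA4 was not tested.

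The comparison of sites asked how cells from ovarian metastases differed from those of stomach tumours. Site differences were smaller than round differences in ITGA2, ITGA3, ITGA6, ITGAV, ITGB1, ITGB4, ITGB5 and ITGB6. As labelled, the 2 sites overlapped for each of the 18 integrins above the minimum, except ITGAX, higher in ovary without overlap after quantile normalization or centring. With the round 2 samples exchanged, ITGAM was higher in ovary without overlap, and ITGA5, ITGA2B and ITGAE were lower. limma called 0 of 14547 genes (0%), and 0 of the 26 members had an unadjusted p under 0.05, where 2.6% of all genes did (1.58% higher and 1.02% lower). Of the 26 members, 10 were lower in ovary in both rounds, against 24.7% of all genes tested, and 3 were higher in both, against 25.3%. Exchanging the labels of the round 2 samples, as their descriptions would allow, gave 8 lower and 5 higher. Of the 8 carcinoma epithelium markers, 5 were lower in ovary in both rounds and 0 higher, with a median difference of -0.13. The median was -0.0071 in round 2 and -0.24 in round 1, whose ovary array had the lowest summed signal of these markers. The part of these markers in the values of the members was not tested. Of 6 leukocyte markers above the minimum, 6 were lower in ovary in both rounds, and of 5 fibroblast markers 4 were. Of 4 endothelial markers 0 were lower and 0 higher, and of 7 smooth and skeletal muscle markers 2 were lower and 1 higher. At 25% or more in both rounds, 0 members were higher in ovary, where 0.667% of all genes were, and 0 lower, where 0.543% were.

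The lower genes included both subunits of alpha 6 beta 4, alpha 2 beta 1 and alpha v beta 6. ITGA6 was at 9.93 and 9.74 in ovary (round 2, then round 1), against 10.06 and 9.88 in stomach, a difference of -0.13 in round 2 and -0.14 in round 1. ITGA2 differed by -0.15 in round 2 and -0.20 in round 1, and ITGB6 by -0.18 and -0.14. ITGAV differed by -0.13 in round 2 and -0.39 in round 1, with a mean of -0.26 ± 0.20 (limma adjusted p = 1.00), and without the round 1 ovary array the difference was -0.014. ITGB4 differed by -0.11 in round 2 and -0.095 in round 1, and LAMC3 by -0.14 and -0.12. In each of these genes the ovary and stomach groups overlapped.

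Among the 26 members above the minimum, LAMB2 and LAMB3 were those whose sites did not overlap as labelled. With the round 2 samples exchanged the sites of both overlapped. Of the other laminins, LAMA1 was then higher in ovary without overlap, and LAMA4, LAMA5 and LAMC1 were lower. LAMB2 had 8.04 and 7.90 in ovary, against 7.82 and 7.89 in stomach (round 2, then round 1). Higher values without overlap were found in 13.4% of all genes tested, and the round 1 values of LAMB2 differed by 0.0062; under quantile normalization its sites overlapped. LAMB3 had 9.18 and 9.004 in ovary, against 9.21 and 9.24 in stomach, and lower values without overlap were found in 11.2% of all genes. The fitted differences were 0.11 ± 0.10 and -0.13 ± 0.10. The other members above the minimum that were higher in ovary in both rounds were ITGAX, by 0.11 in round 2 and 0.049 in round 1, and ITGA7, by 0.0038 and 0.019. Below the minimum, and not tested, ITGB8 was higher in ovary by 0.41 in round 2 and 0.13 in round 1 and ITGB3 by 0.18 and 0.0021, while ITGA8 was lower, with differences of -0.12 and -0.21. After centring on medians ITGA7 no longer had this direction in both rounds, and after quantile normalization LAMB2 did not.

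**Figure D3:**
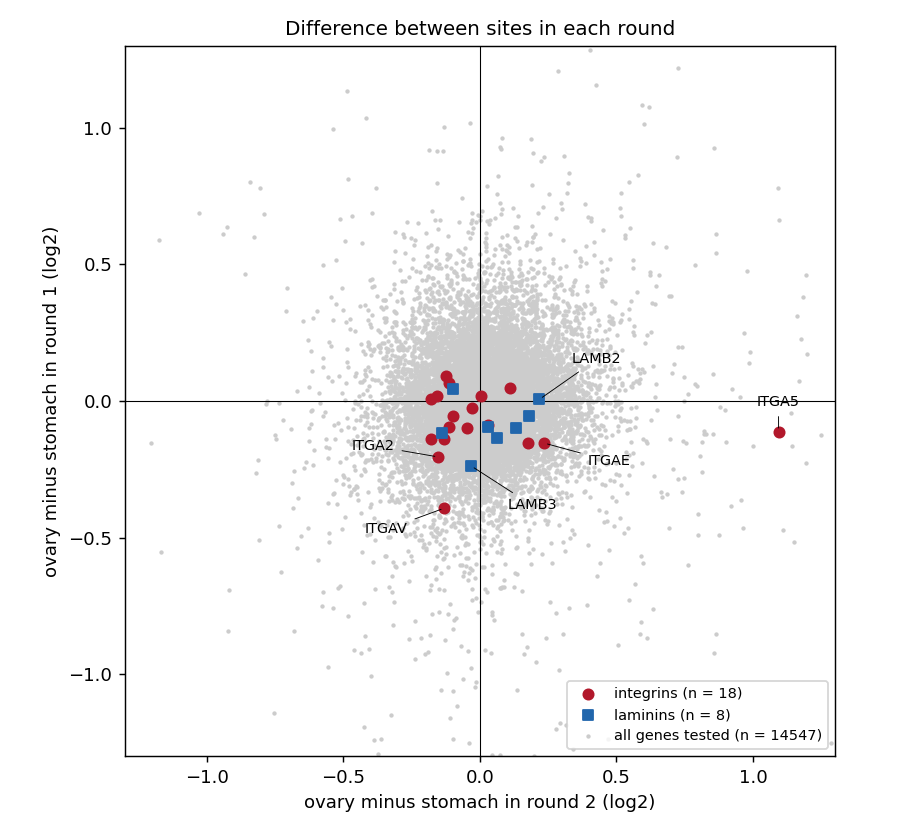
Difference between sites (ovary minus stomach, log2) in round 2 on the x axis and in round 1 on the y axis, for integrins (red circles), laminins (blue squares) and all 14547 genes tested (grey; 35 genes lie outside the axes). The members cluster near the origin, ITGAV lies low at -0.13 and -0.39, and ITGA5 stands apart at 1.09 in round 2 and -0.11 in round 1.

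Among the members, the round difference varied most between the sites for ITGA5, the alpha 5 subunit, which pairs with beta 1 as the main fibronectin receptor. It had 7.57 on the round 2 ovary array, against 6.58 in round 1 ovary, 6.47 in round 2 stomach and 6.69 in round 1 stomach. The round 2 ovary array was the high one, and the others lay between 6.47 and 6.69. The titles and descriptions of both round 2 arrays disagree on the site. The level was 1.98-fold higher in round 2 than in round 1 in ovary lines, while the stomach lines differed by -0.22. The interaction contrast, the round difference in ovary minus that in stomach, was 1.21 ± 0.61 (limma adjusted p = 1.00), so it did not pass the test. With the round 2 samples exchanged the contrast was -0.98, the round difference being -0.10 in ovary lines and 0.88 in stomach lines, so its direction depends on the site labels. Its fibronectin partner subunit ITGB1 had a contrast of -0.041 ± 0.28. Opposite round differences at the sites were found in 10 of 26 members, 4 integrins and 6 laminins, where 31.6% of all genes tested had them. After centring on medians 3 laminins had them, and with the round 2 samples exchanged 2 integrins and 2 laminins did.

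The next interaction contrasts were those of ITGAE, the alpha E subunit that binds E-cadherin, and ITGA2B. ITGAE had 6.69 and 6.45 in round 2 (ovary, then stomach), against 6.41 and 6.57 in round 1, a contrast of 0.39 ± 0.19. ITGA2B had a contrast of 0.33 ± 0.23, its round 1 stomach array being the high one at 6.29, and ITGAV one of 0.26 ± 0.45. In the opposite direction ITGA11 had a contrast of -0.21 ± 0.24, ITGA3 -0.19 ± 0.53, ITGAM -0.18 ± 0.17 and ITGB2 -0.17 ± 0.26. limma called 0 of 14547 genes for the interaction (0%), with 194 at an unadjusted p under 0.05 (1.33%; 0.577% positive and 0.756% negative) and 0 of the 26 members among them.

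Other genes of integrin adhesion were read from 5 lists. Of 43 adaptors and kinases above the minimum, 25 were higher in round 2 at both sites, where 29% of all genes tested were, and 2 were lower, where 34.7% were; 0 passed limma's test in either direction. RAP1B, a small GTPase that drives talin to integrins, had 10.54 in ovary and 10.54 in stomach in round 2, against 10.11 and 10.13 in round 1 (0.42 ± 0.068). PARVA, a parvin that links integrin-linked kinase to actin, differed by 0.33 ± 0.071, and the scaffold NEDD9 by 0.34 ± 0.18. DAB2, an endocytic adaptor of beta integrin tails, had 9.18 in ovary and 9.71 in stomach in round 2, against 7.48 in ovary and 9.13 in stomach in round 1. Its round 1 ovary array was below the others, and the fitted differences were 1.14 ± 0.57 between rounds and -1.09 ± 0.60 between sites.

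Of 24 other matrix and surface ligands of integrins, 7 were higher and 8 lower in round 2 at both sites, and 0 passed the test. For this list and those that follow, the shares over all genes tested were 29% higher and 34.7% lower. CCN2 and CCN1, matricellular proteins that bind integrins, were also highest on the array on which ITGA5 was. The share of all genes highest on that array was not counted, and a link of these genes to ITGA5 was not tested. CCN2 had 9.97 on the round 2 ovary array, against 8.87 in round 1 ovary, 9.06 in round 2 stomach and 9.02 in round 1 stomach. CCN1 had 7.18 on the round 2 ovary array, against 6.55 in round 1 ovary, 6.35 in round 2 stomach and 6.66 in round 1 stomach. NPNT, nephronectin, a basement membrane ligand of alpha 8 beta 1, had 10.89 in ovary and 11.05 in stomach in round 2, against 10.38 and 10.81 in round 1, and the protease ADAM17 differed between rounds by 0.35 ± 0.080.

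Of 12 basement membrane partners of laminin, 3 were higher and 5 lower in round 2 at both sites, and 0 passed the test. AGRN, agrin, a proteoglycan that binds laminin and dystroglycan, had 8.52 in ovary and 8.46 in stomach in round 2, against 8.08 and 8.13 in round 1 (0.39 ± 0.072). COL18A1, a collagen of basement membranes, differed by -0.25 ± 0.073. COL4A4, a chain of type IV collagen, and NID1, nidogen, which bridges laminin and type IV collagen, were near the minimum and differed by -0.18 ± 0.075 and -0.14 ± 0.078.

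Of 6 hemidesmosome partners, 2 were higher and 3 lower in round 2 at both sites, with 0 past the test. DST, dystonin, which links beta 4 to keratin, had 9.76 in ovary and 9.76 in stomach in round 2, against 9.37 and 9.43 in round 1 (0.36 ± 0.071). PLEC, plectin, differed by 0.10 ± 0.070, the basal keratin KRT14 by -0.48 ± 0.12 and CD151, a tetraspanin bound to laminin-binding integrins, by -0.34 ± 0.13. Of 10 other laminin receptors and tetraspanins, a list that also holds CD151, 4 were higher and 3 lower in round 2 at both sites. CD63 differed by 0.42 ± 0.22 and CD82 by 0.36 ± 0.16. TSPAN8 had 7.65 in ovary and 8.06 in stomach in round 2, against 7.93 in ovary and 6.89 in stomach in round 1, so only its round 1 stomach array was low.

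**Figure D4:**
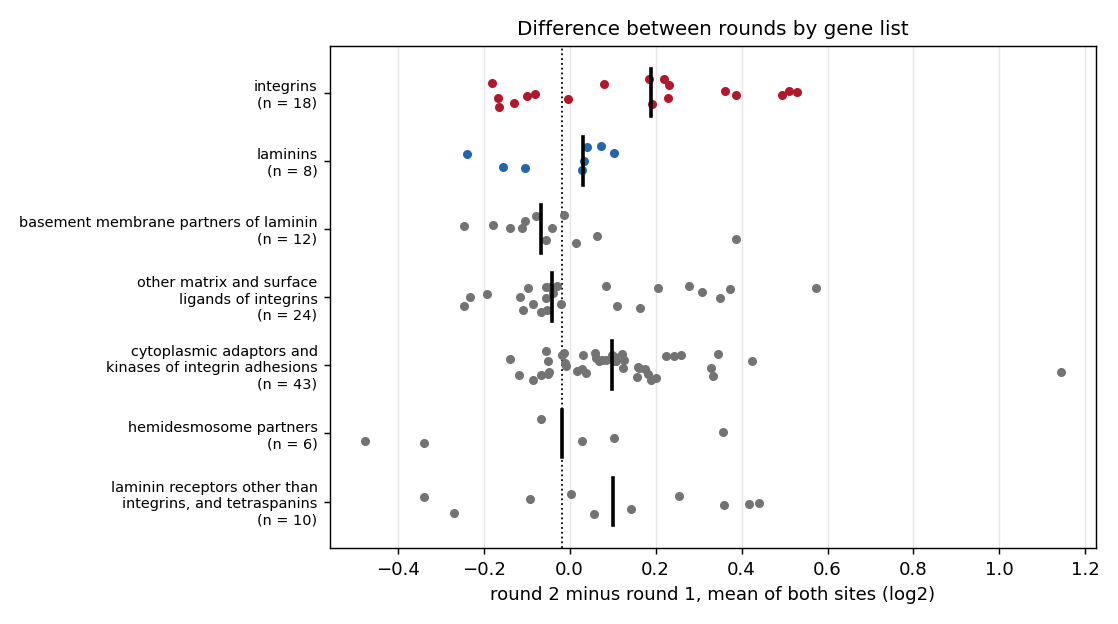
Difference between rounds (round 2 minus round 1, mean of both sites, log2) for each gene above the signal minimum, by list; 1 point is 1 gene, the vertical position within a list is arbitrary, the black bar is the list's median and the dotted line the median of all genes tested at -0.019. The integrins have a median of 0.19 and the adaptors and kinases 0.10, whereas the laminins stand at 0.031 and their basement membrane partners at -0.067.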

How the data were processed

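Total RNA from cell pellets was labelled with biotin and hybridised to Affymetrix human arrays, per the labels' protocols. The values are log2 expression per probe set, as the authors deposited them. The submitters' processing notes name Affymetrix Expression Console, and no source used here gives the background correction or normalization. Of 33297 rows, 19460 name 1 gene, 1754 several and 12083 are unnamed here. Symbols were updated by gene identifier to RefSeq GRCh38.p14 (19429 rows found). For genes with several probe sets the highest mean was used.

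Linear models were run in limma 3.58.1 under R 4.3.3, with moderated two-sided tests and Benjamini-Hochberg adjustment over 14547 genes at a threshold of 0.05. They were run for ovary minus stomach, round 2 minus round 1 and their interaction. The site fit was also run on simulated arrays with 200 changed genes, 10 runs per size of change. It recovered 25.55% of 2-fold and 93.9% of 4-fold changes, so most 2-fold changes were missed. The simulated arrays had no round difference, unlike these data. Each was fitted alone, so the spread of the site fit holds the round differences, that of the round fit the site differences, and that of the interaction both. Alternatives covered the signal minimum, normalization, probe set, prior, replicate block, threshold and each array left out.

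The rule for named genes accounts for every member. It gives values per array for the 6 highest and 6 lowest members by consistent site or round difference and the 4 largest interaction contrasts in each direction, and adds partners in a heterodimer or trimer. Of each pathway list it takes up to 4 genes with the largest difference. Members and lists were chosen with earlier results of these data known. Figures were drawn with matplotlib 3.10.9. The number of arrays limits the precision.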

Additional observations from a re-analysis of the deposited data

How the results depend on the processing

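No gene or member was called for the sites, the rounds or the interaction under any alternative run (0 in each), with smallest adjusted p among the members from 0.79 to 1.00 between sites and from 0.208 to 0.488 between rounds. The sites share only the round numbers, whose deviations correlated across genes at 0.411 over 2 pairs. With the replicate block, 0 genes and 0 members were called in either comparison, with 916 genes at an unadjusted p under 0.05 between sites and 2358 between rounds, and the block changed no call. Without the signal minimum, which adds 7 members, 5 were higher in ovary in both rounds and 11 lower in round 2 at both sites, in place of 3 and 7; with a minimum at the 50th percentile, which leaves 15 members, these were 1 and 2. With the round 2 samples exchanged 5 members were higher in ovary in both rounds, and as labelled 3 were higher in round 2 with rounds at least 25% apart at both sites; both alternatives were chosen after seeing the data. Of 343 recomputed differences of named members, 323 kept their direction and 20 reversed. The reversals came when 1 array was left out, which leaves the rounds unbalanced between the sites, or when the round 2 samples were exchanged. The signal minimum, prior and replicate block cannot alter a difference, nor can the choice of probe set where each member has 1. Much of the count of 323 was therefore fixed in advance. Exchanged, the site difference was -0.031 for ITGAX, -0.11 for LAMB2, 0.020 for ITGB6, 0.010 for LAMC3 and 0.0090 for ITGB4. The interaction contrast was -0.98 for ITGA5, -0.081 for ITGAE, -0.022 for ITGA2B, 0.032 for ITGA11, 0.17 for ITGA3, 0.046 for ITGAM and 0.14 for ITGB2. Over the arrays left out in turn, the site difference ranged between -0.057 and 0.079 for ITGA7, -0.44 and 0.082 for ITGA2, -0.42 and 0.11 for ITGB6 and -0.22 and 0.010 for ITGB4. Without ovary replicate 1 the reversed values were ITGA7 (-0.057), ITGA2 (0.082), ITGB6 (0.086) and ITGB4 (0.0011), and without stomach replicate 2 they were ITGA7 (-0.049), ITGA2 (0.056), ITGB6 (0.11) and ITGB4 (0.010). Each group has 2 arrays; the members under the signal minimum of 5.64 were not tested.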
